A study of Mus musculus with 4 samples.

Results

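The genes described here are Atf4 and 34 other genes of the amino acid stress response, a list of 35 given by name. The list was chosen with earlier results of these data known. Shares of all genes set beside its counts are therefore a description and not an independent check. They were found by matching the RefSeq accessions of the array probes to gene symbols. Of the 35 genes, 34 had a probe among the 22911 genes matched in this way, and 33 were well above background on all 4 arrays. Pycr1, an enzyme of proline synthesis, was matched by no probe. Stc2, a secreted stanniocalcin, was well above background with Miglustat only, at a level of -5.29, and is given no fold.

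Total RNA came from MC3T3-E1, an established osteoblastic line from mouse calvaria, hybridised to Agilent one-colour arrays with 1 array in each of 4 groups. The groups were Control, for which the labels name no agent or vehicle, 50 µM Miglustat, 10 µM D-PDMP and 1.0 µM D-PPMP. All 3 compounds inhibit glucosylceramide synthase (GCS), the enzyme that adds glucose to ceramide and so starts most glycosphingolipids. After 4 days with inhibitor the cells were replated and kept for a further 24 h, and whether inhibitor was present in that last period is not given in the sources used here. Miglustat is an iminosugar, whereas D-PDMP and D-PPMP are ceramide analogues that share a phenyl and morpholino core and differ in the length of the acyl chain. The doses differ, so values for the inhibitors stand side by side and the compounds are not compared.

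With 1 array per group no test was possible, no p-value is given, and a ratio describes a pair of arrays. All ratios share the Control array, so an unusual Control value moves all 3 ratios of a gene together. The arrays lay on 1 slide, and array position and group cannot be told apart. Between 57.4% and 62.4% of probes were well above background and no spot was saturated. The SD of log2 signal over probes printed 10 times was 0.03 to 0.04, and the scanner software's error of a log2 ratio had a median of 0.20. Neither covers differences between cultures. Of 10 osteoblast markers, 7 were well above background on all arrays, among them Runx2 (levels -0.05 to -0.16) and Col1a1 (8.01 to 8.14). On no array were Alpl and Ibsp well above background, and Bglap was so with D-PDMP and D-PPMP only. The summed osteoblast marker signal was 1507 times the array's 75th percentile in Control and 1401, 1325 and 1272 times with Miglustat, D-PDMP and D-PPMP. Col1a2, Sparc and Col1a1 had the largest signals in that sum. Of the 7 markers measured, 4, 4 and 6 were below Control. In the same order of inhibitors, log2 ratios to Control were -0.36, -0.45 and -0.45 for Sparc, -0.66, 0.19 and 0.38 for Spp1, and 0.735, 0.015 and -0.444 for Sp7. Of the markers of other cell types, 3 of 6 for adipocytes and 3 of 6 for chondrocytes were well above background on all arrays. For skeletal muscle it was 0 of 6, and for macrophages and osteoclasts 4 of 7. Their summed signals ran, in the same order, 0.53, 0.70, 0.63 and 0.63 for adipocytes, 68.2, 88.6, 56.7 and 53.9 for chondrocytes, 0.07, 0.08, 0.12 and 0.11 for skeletal muscle, and 16.7, 17.0, 14.5 and 13.6 for macrophages and osteoclasts. Col2a1 (levels 5.70 to 6.43), Ctsk (3.52 to 3.87), Sox9 (0.92 to 1.02) and Csf1r (0.68 to 0.97) were among those well above background on all arrays. Ptprc and Adgre1 were so on no array, and Adipoq was so with D-PPMP only. The part of these other markers in the results was not tested. In bulk RNA, fewer cells that express a gene and less of its RNA per cell cannot be told apart.

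When amino acids run short or unfolded protein gathers in the endoplasmic reticulum, kinases such as GCN2 and PERK phosphorylate the initiation factor eIF2, general translation slows, and translation of Atf4 mRNA goes up. The ATF4 protein then pairs with C/EBP proteins and turns on genes that import and make amino acids, charge tRNAs and restart translation. In osteoblasts ATF4 is known as a factor for bone formation, where it supports amino acid supply for collagen synthesis. Since ATF4 is controlled to a large extent at translation, the level of its mRNA is not a measure of its protein. The arrays measured mRNA only.

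ATF4 and C/EBP proteins are known to bind a composite element, searched here as TGATGNAA on both strands (TTNCATCA on the reverse) in RefSeq promoters of build GRCm38.p6, from 250 bases before to 50 after each start. Of 27025 genes with a promoter in that table, 1219 (4.51%) held the letters in at least 1 promoter. Of 29 list genes with a promoter, 8 held them, or 27.6%, over 36 promoters. They were Slc7a11, Asns, Nupr1, Chac1, Vldlr, Trib3, Slc1a4 and Pycr1. The windows of 5 of them, all measured and all with the element wholly before the start, are given from 5′ to 3′, since they place the element beside genes whose levels follow. Capitals mark the element.
Slc7a11, chr3:50443623-50443709, minus strand: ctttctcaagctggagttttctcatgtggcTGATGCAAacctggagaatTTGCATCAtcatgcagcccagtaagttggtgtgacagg
Asns, chr6:7693210-7693262, minus strand: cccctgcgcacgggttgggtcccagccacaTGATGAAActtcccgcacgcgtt
Nupr1, chr7:126625543-126625610, minus strand: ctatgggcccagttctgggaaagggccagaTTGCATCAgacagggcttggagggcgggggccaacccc
Chac1, chr2:119351019-119351086, plus strand: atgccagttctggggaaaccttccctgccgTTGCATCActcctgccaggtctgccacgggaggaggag
Vldlr, chr19:27216790-27216857, plus strand: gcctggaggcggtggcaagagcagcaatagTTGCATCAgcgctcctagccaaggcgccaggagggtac

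The Slc7a11 promoter held the element in both orientations, at -66 to -59 and at -47 to -40 from the start. In Asns it lay at -23 to -16, in Nupr1 at -110 to -103, in Chac1 at -193 to -186 and in Vldlr at -200 to -193 from a second annotated start. In Trib3 it lay after the start, at 15 to 22. A match describes the letters and is not a binding site, and the absence of a match says only that these letters are not in this window. Among the 7 measured genes with the element, the median log2 ratio to Control was -0.15 (Miglustat), -0.30 (D-PDMP) and -0.40 (D-PPMP). Among the 20 measured genes whose promoters lacked it, the medians were -0.11, -0.20 and -0.27. All 7 genes with the element lay below Control with D-PDMP and with D-PPMP, as did 17 and 18 of the 20 without it. With Miglustat it was 5 of the 7 and 14 of the 20. Over all genes measured, 55.5% (Miglustat), 50.4% (D-PDMP) and 51.5% (D-PPMP) lay below Control. Genes outside the list that hold the element were not summarised, and a link between the element and the ratios was not tested. Slc1a4, among the 7, lay at -0.005 (D-PDMP) and -0.015 (D-PPMP), and both signs depended on the processing.

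The question for each inhibitor was whether the amino acid stress genes differed from Control. The level of a gene is log2 of its processed signal minus the 75th percentile of its array, and a log2 ratio is the difference of levels on a pair of arrays. As a list, these genes lay below Control with each inhibitor, by small amounts. Their median log2 ratio was -0.10 (Miglustat), -0.20 (D-PDMP) and -0.28 (D-PPMP), whereas over all genes measured the medians were -0.02, 0.00 and -0.01. The middle part of the list, from the lower to the upper quartile, ran from -0.22 to 0.01, from -0.32 to -0.05 and from -0.40 to -0.16.

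With Miglustat, 23 of 33 genes were below Control, where 55.5% of all genes measured were below. With D-PDMP, 28 of 33 were below Control against 50.4% of all genes, and with D-PPMP 30 of 33 against 51.5%. With Miglustat the shift was not particular to this list. Of the other pathway lists described below, the medians with Miglustat were -0.11 (glutathione and cystine handling), -0.10 (other tRNA synthetases), -0.09 (ATF4-induced tRNA synthetases), -0.06 (eIF2 genes) and 0.02 (further ATF4 targets). With D-PDMP and D-PPMP, genes of like signal did not share the shift of the list. The 3961 genes whose level lay between the lower and upper quartile of the list (2.17 to 4.74) had medians of -0.02, 0.01 and -0.02, and 58.3%, 46.5% and 56.5% of them were below Control.

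**Figure D1:**
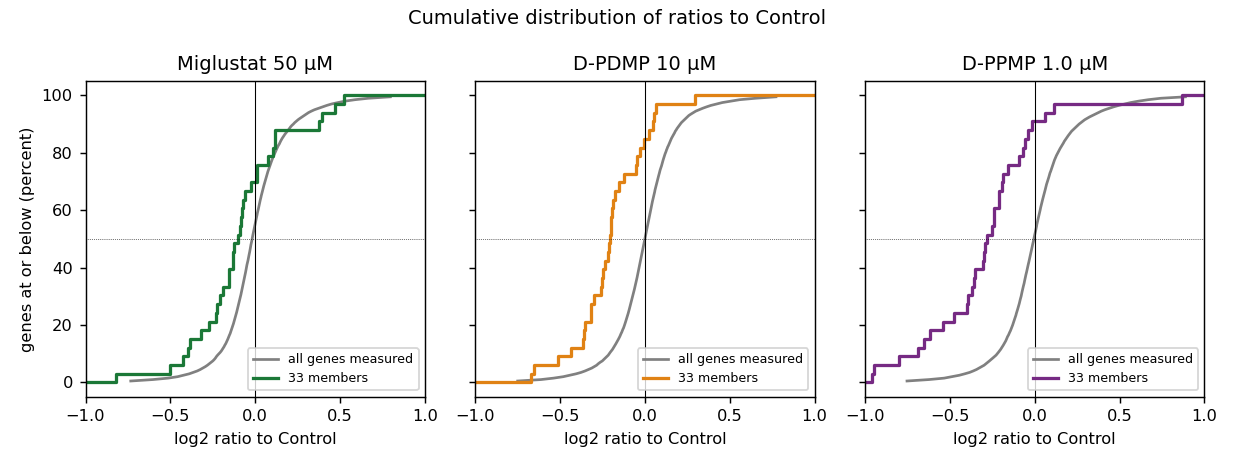
Cumulative distribution of log2 ratios to Control for the 33 measured amino acid stress genes (coloured steps) and for all genes measured (grey, from the 0.5th to the 99.5th percentile), 1 panel per inhibitor; the x axis is the log2 ratio and the y axis the percent of genes at or below it. The coloured steps lie left of the grey curve over most of their course with D-PDMP and D-PPMP, and the medians of the list are -0.10, -0.20 and -0.28.

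Few of these genes passed a fold of 1.5. With Miglustat 1 of 33 was at least 1.5-fold lower, where 1.11% of all genes were, and 0 were at least 1.5-fold higher, where 1.57% were. With D-PDMP 2 were at least 1.5-fold lower (1.2% of all genes) and 0 higher (1.34%). With D-PPMP 6 were at least 1.5-fold lower (1.18% of all genes) and 1 was higher (2.27%). The count of 6 was 3 with a normexp background correction, which also left 0 higher, and 4 with the mean over the probes of a gene. A 2-fold difference was reached by 0 of 33 genes in either direction. However, Slc7a11 with D-PPMP passed it with quantile normalization (-1.06), cyclic loess (-1.05) and the mean over probes (-1.58). The -1.58 takes in a second probe that was not well above background with D-PPMP. Over all genes measured, 0.176% were at least 2-fold lower and 0.212% higher with Miglustat, 0.17% lower and 0.155% higher with D-PDMP, and 0.204% lower and 0.303% higher with D-PPMP. Just inside and outside the 1.5-fold limit on the lower side stood Cth (-0.82) and Vldlr (-0.50) with Miglustat, Cth (-0.65) and Slc7a11 (-0.51) with D-PDMP, and Gpt2 (-0.62) and Atf5 (-0.54) with D-PPMP.

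The D-PPMP array held the lowest of the 4 levels for 25 of the 33 genes, and over 14003 genes measured on all arrays it was the lowest for 27.4%. Control held the highest level for 23 of 33 genes and for 26.4% of all genes. The D-PDMP array was the highest for 0 of the 33 genes and for 23.7% of all genes. For most of the list, then, Control was at the top of the order and D-PPMP at the bottom, and neighbours in that order often lay closer than the software's error.

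**Figure D2:**
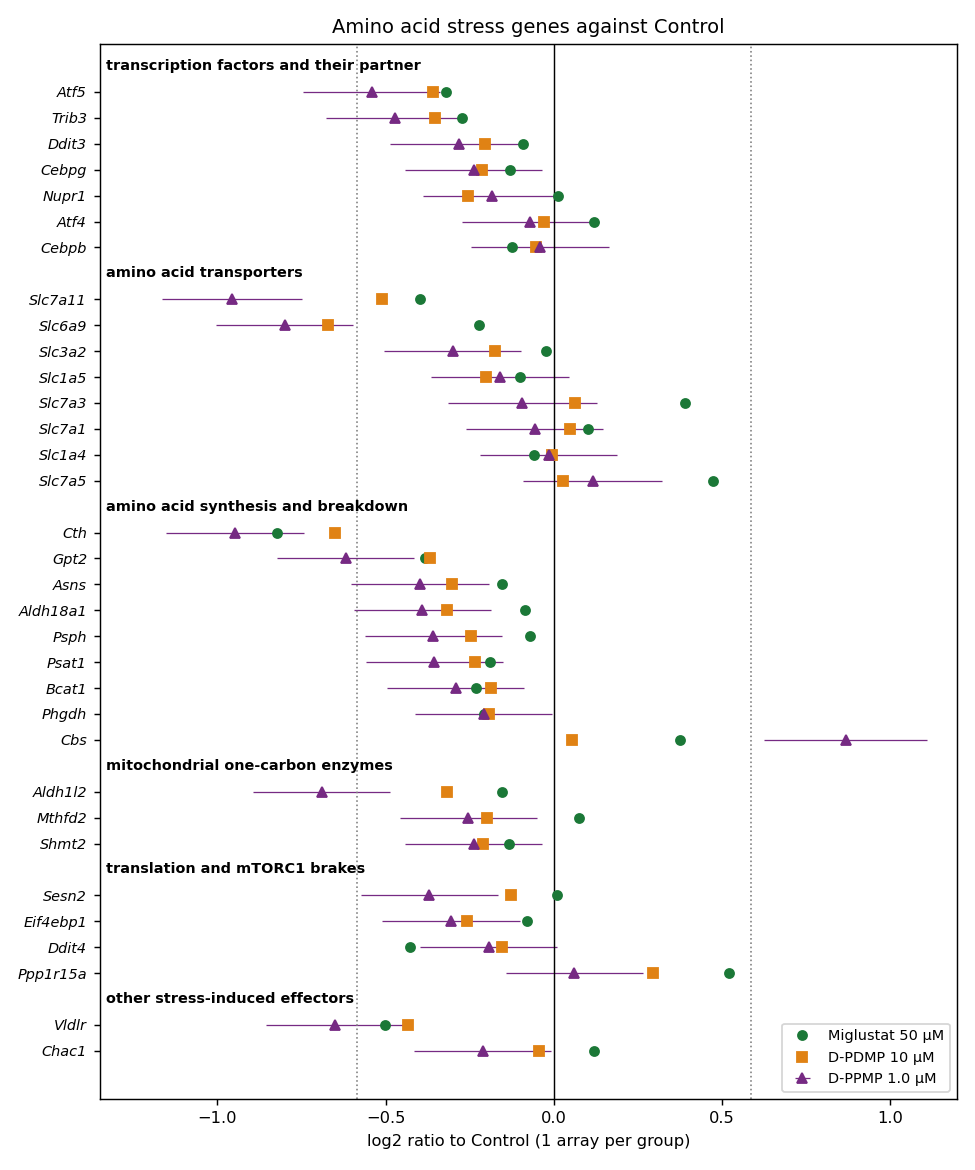
Log2 ratio to Control of each of the 33 measured genes, grouped by role, with 1 array per group; circles are Miglustat, squares D-PDMP and triangles D-PPMP, bars on the triangles are the scanner software's error of that ratio, and dotted lines mark 1.5-fold. Cth and Slc7a11 lie lowest with D-PPMP, at -0.95 and -0.96, and Cbs lies at 0.87.

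The transcription factors with their partner Trib3 numbered 7, and all 7 were below Control with D-PDMP and with D-PPMP, as were 5 with Miglustat. Their median log2 ratio was -0.12, -0.21 and -0.24. Sets of 3 levels or ratios are given in the order Miglustat, D-PDMP, D-PPMP throughout. Atf4 itself, the central factor of the response, differed little between the arrays. Its level was 7.80 in Control and 7.92, 7.77 and 7.73 with the inhibitors. Its ratios of 0.12, -0.03 and -0.07 lay within the software's error of 0.20, and the sign with D-PDMP depended on the scaling.

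Atf5, a relative of ATF4 that is also controlled at translation and is a target of the response, was lower on all 3 inhibitor arrays. Its level was 7.20 in Control and 6.88, 6.84 and 6.65 with the inhibitors, giving ratios of -0.32, -0.36 and -0.54. All 3 ratios were larger in size than the software's error and below the 1.5-fold limit. Ddit3 encodes CHOP, a factor induced by ATF4 that is linked to cell death under prolonged stress. Its level was 1.55 in Control and 1.46, 1.35 and 1.27 with the inhibitors, with ratios of -0.09, -0.20 and -0.28.

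The C/EBP factors are binding partners of ATF4. Cebpb had levels of 4.80 in Control and 4.67, 4.75 and 4.76 with the inhibitors, and its ratios of -0.12, -0.05 and -0.04 were within the software's error. Cebpg had levels of 1.64 in Control and 1.51, 1.43 and 1.41 with the inhibitors, and ratios of -0.13, -0.21 and -0.24. Trib3, a pseudokinase that binds ATF4 and restrains it, had ratios of -0.27, -0.35 and -0.47. Nupr1, a small stress-induced nuclear protein, had ratios of 0.01, -0.25 and -0.19.

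Of the 8 amino acid transporters, 5, 5 and 7 were below Control, with medians of -0.04, -0.09 and -0.13. Slc7a11 and Slc6a9 stood apart from the rest of this group. Slc7a11 is the light chain of the cystine and glutamate exchanger xCT, which brings in cystine for glutathione. Its level was -1.37 in Control and -1.77, -1.88 and -2.33 with the inhibitors. The ratios were -0.40, -0.51 and -0.96, so that with D-PPMP the signal was 1.94-fold lower, at 37.5 against 70.4 units in Control. These signals are dim: with the normexp correction the D-PPMP ratio was -0.49, under 1.5-fold. A second Slc7a11 probe was well above background in Control and with D-PDMP only, where its ratio was -0.61.

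Slc6a9 is the glycine transporter GlyT1. Its level was 3.62 in Control and 3.40, 2.95 and 2.82 with the inhibitors. The ratios were -0.22, -0.67 and -0.80, or 1.59-fold lower with D-PDMP and 1.74-fold lower with D-PPMP. Slc3a2, the heavy chain that pairs with Slc7a11 and Slc7a5 at the cell surface, had ratios of -0.02, -0.18 and -0.30. A second Slc3a2 probe, well above background on all arrays, gave -0.13, -0.12 and -0.11. Slc1a5, a glutamine transporter, had ratios of -0.10, -0.20 and -0.16.

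The carriers of leucine and of cationic amino acids did not lie below Control with Miglustat. Slc7a5, the LAT1 light chain, had ratios of 0.47, 0.03 and 0.12, and the cationic amino acid transporter Slc7a3 had ratios of 0.39, 0.06 and -0.09. Slc7a5 and Slc7a3 are dim, and over the processing alternatives their Miglustat ratios went as low as 0.22 and 0.03. The related Slc7a1 had ratios of 0.10, 0.05 and -0.06. Slc1a4, a carrier of small neutral amino acids, was near 0 with each inhibitor (-0.06, -0.01 and -0.02). Across the processing alternatives the sign changed for Slc3a2 with Miglustat, for Slc7a5 and Slc7a3 with D-PDMP and for Slc1a4 with D-PDMP and D-PPMP.

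Of the 9 measured enzymes of amino acid synthesis and breakdown, 8 were below Control with each inhibitor, and the ninth, Cbs, was above Control with each. The medians of this group were -0.19, -0.25 and -0.36. Cth is cystathionine gamma-lyase, which releases cysteine in the last step of transsulfuration and also makes hydrogen sulfide. Its level was 0.10 in Control and -0.73, -0.56 and -0.85 with the inhibitors. It was the one list gene at least 1.5-fold lower with each inhibitor, by 1.77-fold, 1.57-fold and 1.93-fold, or ratios of -0.82, -0.65 and -0.95. Control was the array apart, at 195 signal units against 105 to 129 on the others. With the normexp correction the D-PDMP ratio was -0.53, under 1.5-fold.

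Cbs, cystathionine beta-synthase, catalyses the step of transsulfuration before Cth. Its level was -3.82 in Control and -3.44, -3.76 and -2.95 with the inhibitors. The ratios were 0.38, 0.05 and 0.87, opposite in sign to those of Cth, and with D-PPMP Cbs was 1.83-fold higher. Its signals of 12.9, 17.6, 13.9 and 24.4 units were close to background, with an error of 0.24 for the D-PPMP ratio. With the normexp correction the Miglustat and D-PPMP ratios were 0.01 and 0.14, and the sign with D-PDMP depended on the setting.

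Gpt2, a mitochondrial alanine aminotransferase, had levels of 1.49 in Control and 1.11, 1.12 and 0.87 with the inhibitors. Its ratios were -0.38, -0.37 and -0.62, or 1.54-fold lower with D-PPMP, and that ratio was under 1.5-fold with the normexp correction (-0.53) and with the mean over probes (-0.58). Asns, asparagine synthetase, is a classical ATF4 target and had ratios of -0.15, -0.30 and -0.40. The serine pathway enzymes Phgdh, Psat1 and Psph act in sequence. Phgdh, the first, had ratios of -0.21, -0.19 and -0.21, Psat1 had -0.19, -0.23 and -0.36, and Psph had -0.07, -0.25 and -0.36. Aldh18a1, which starts proline synthesis from glutamate, had ratios of -0.09, -0.32 and -0.39. The branched-chain aminotransferase Bcat1 had ratios of -0.23, -0.19 and -0.29.

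The 3 mitochondrial one-carbon enzymes handle the carbon unit taken from serine. All 3 were below Control with D-PDMP and with D-PPMP, and 2 were with Miglustat. Aldh1l2, a formyltetrahydrofolate dehydrogenase, had levels of 3.32 in Control and 3.17, 3.01 and 2.63 with the inhibitors. Its ratios were -0.15, -0.32 and -0.69, or 1.61-fold lower with D-PPMP. Shmt2, which passes the serine carbon to folate, had ratios of -0.13, -0.21 and -0.24. Mthfd2, the next enzyme, had ratios of 0.07, -0.20 and -0.25.

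Of the 4 brakes on translation and on the growth kinase complex mTORC1, 2, 3 and 3 were below Control, and the medians were -0.03, -0.14 and -0.25, the first of which changed sign between settings. Sesn2, a leucine-binding inhibitor of mTORC1, had ratios of 0.01, -0.13 and -0.37. Eif4ebp1, which holds the cap-binding factor eIF4E, had ratios of -0.08, -0.26 and -0.31. Ddit4, also known as REDD1, another inhibitor of mTORC1, had ratios of -0.43, -0.15 and -0.19. Ppp1r15a encodes GADD34, which directs a phosphatase to eIF2 and so ends the response. It lay above Control, with ratios of 0.52, 0.30 and 0.06.

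The remaining measured genes were Vldlr and Chac1. Vldlr, a lipoprotein receptor induced by ATF4, had levels of 3.18 in Control and 2.68, 2.75 and 2.53 with the inhibitors. Control was the highest of the 4, and the ratios were -0.50, -0.43 and -0.65, or 1.57-fold lower with D-PPMP. The D-PPMP ratio was under 1.5-fold with the normexp correction (-0.54) and with the mean over probes (-0.48), and a second probe gave -0.58, -0.29 and -0.30. Chac1, which breaks down glutathione and is a marked target of the ATF4 and CHOP branch, had ratios of 0.12, -0.04 and -0.21.

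**Figure D3:**
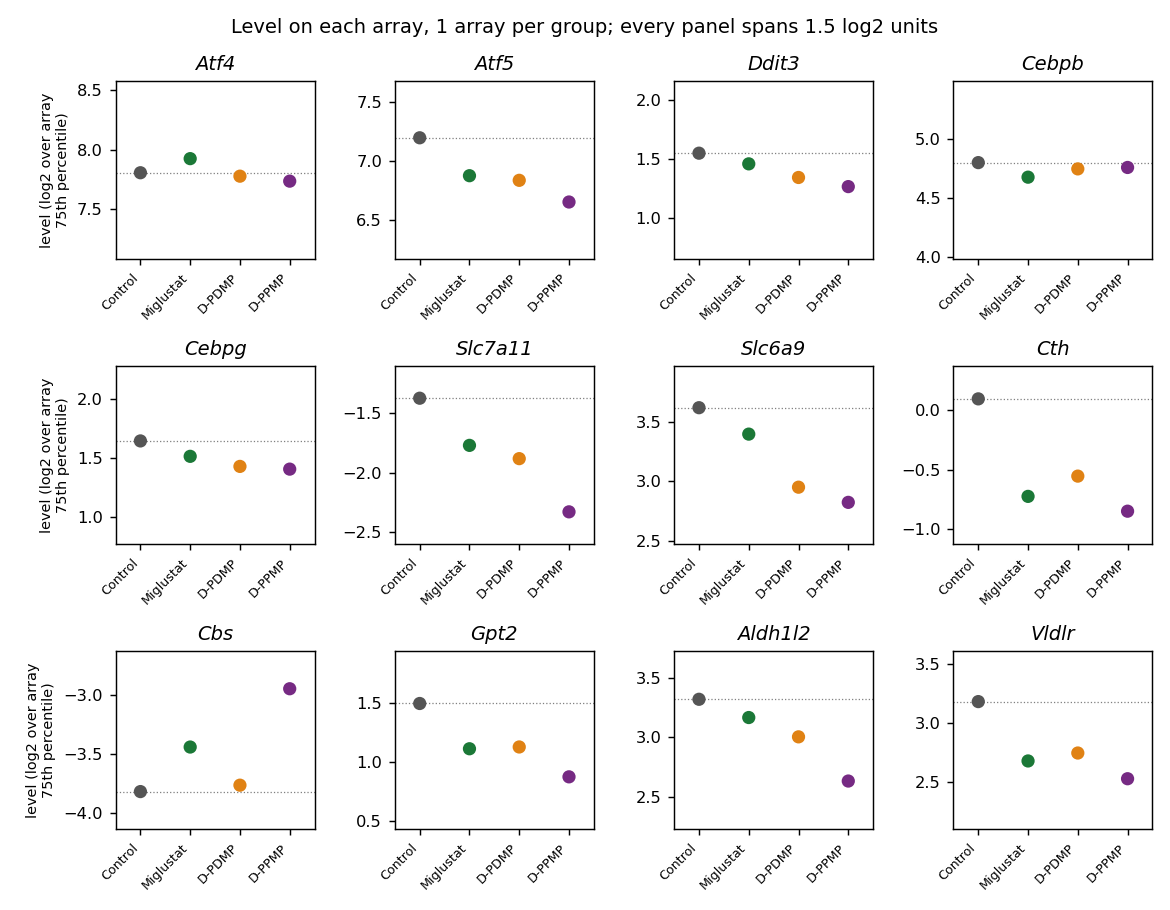
Level of 12 genes on each of the 4 arrays (1 array per group), as log2 signal over the array's 75th percentile; each panel has its own y axis of 1.5 log2 units and the dotted line marks Control. Atf4 stays between 7.73 and 7.92, Cth lies at 0.10 in Control and between -0.85 and -0.56 with the inhibitors, and Cbs lies at -2.95 with D-PPMP.

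For 12 of the genes a second probe was also well above background on all arrays. On the second probes the medians were -0.18, -0.30 and -0.33, where the brightest probes of the same genes gave -0.15, -0.22 and -0.33. The number below Control was 10, 12 and 12 of 12 on either set of probes. The median distance between the 2 probes of a gene was 0.09, 0.07 and 0.09, against 0.09, 0.09 and 0.11 over 5271 genes with a pair of such probes. The probes differed by up to 0.29 with Miglustat, where Bcat1 gave -0.23 and 0.06, and by up to 0.35 with D-PPMP, for Vldlr. Atf5 gave -0.31, -0.36 and -0.57 on its second probe, Aldh1l2 gave -0.28, -0.44 and -0.68, and Gpt2 gave -0.26, -0.40 and -0.55. The second Atf4 probe gave 0.15, -0.11 and -0.19.

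**Figure D4:**
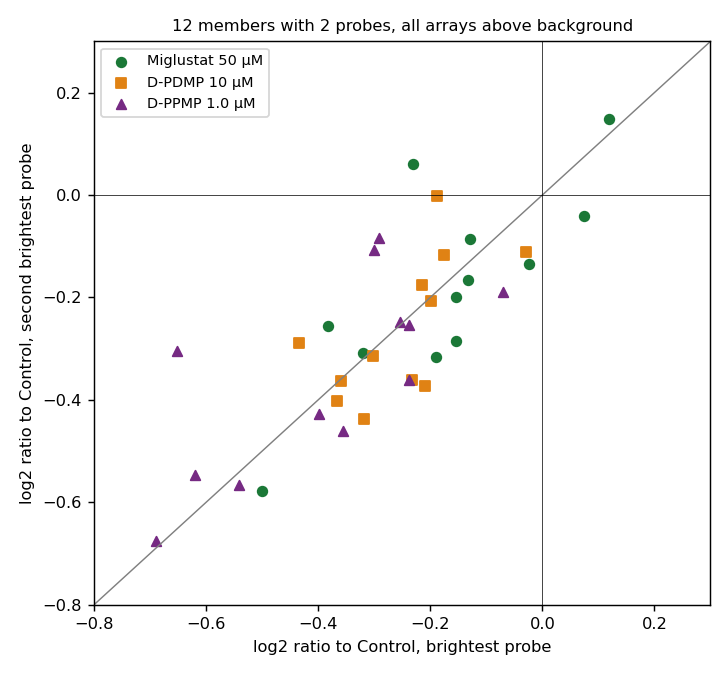
Log2 ratio to Control on the second brightest probe (y axis) against that on the brightest probe (x axis) for the 12 genes with both well above background on all arrays; the diagonal marks equal ratios, and colours and shapes mark the inhibitors. Most points lie at the lower left, below Control on both probes, and Vldlr with D-PPMP (-0.65 and -0.30) lies farthest from the diagonal.

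Other genes of the same pathway were taken as lists from general knowledge, with earlier results of these data known. They are therefore not an independent check of the values above. ATF4 is known to induce many cytosolic tRNA synthetases, which load amino acids onto tRNAs. Of 12 such synthetases and the tRNA exporter Xpot, 11 of 13 were below Control with Miglustat, as were 13 of 13 with either ceramide analogue, with medians of -0.09, -0.18 and -0.23. The differences were small, and 0 of 13 reached 1.5-fold with any inhibitor. The alanyl enzyme Aars, with ratios of -0.13, -0.29 and -0.42, and the seryl enzyme Sars, with -0.21, -0.32 and -0.36, were the most distant from Control. Of 8 other cytosolic synthetases, 6, 6 and 3 were below Control and the medians were -0.10, -0.04 and 0.01. Hars had ratios of -0.09, -0.12 and -0.28, and Farsa had 0.20, 0.24 and 0.28. The letters of the composite element were in the promoters of 5 of 9 genes of the first set (55.6%) and 0 of 5 of the second.

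The genes upstream of ATF4 had medians closer to Control than the list did. With Miglustat, however, 73.3% of them were below Control, against 69.7% of the list and 55.5% of all genes. Of 15 genes for eIF2, its exchange factor eIF2B, its kinases, the kinase regulators Gcn1 and Impact and the phosphatase subunit Ppp1r15b, 11, 7 and 9 were below Control, with medians of -0.06, 0.00 and -0.05, and 0 of 15 reached 1.5-fold. The kinase gene Eif2ak3, which encodes PERK, had ratios of 0.19, -0.01 and -0.21. Eif2s2, the beta subunit of eIF2, had ratios of -0.06, -0.02 and -0.19.

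Further known ATF4 targets outside the list showed no common direction. Of 21 measured with Miglustat and with D-PDMP, 8 and 9 were below Control, as were 14 of 20 with D-PPMP, and the medians were 0.02, 0.04 and -0.07. Atf3, a stress-induced factor of the same protein family, had ratios of 0.92, -0.07 and -0.13. Its signals were dim, at 32.1 units in Control and 63.4, 31.8 and 30.4 with the inhibitors. The hormone gene Fgf21 had ratios of -0.24 and -0.81 with Miglustat and D-PDMP, with errors of 0.32 and 0.38. It was not well above background with D-PPMP, where its measured signal was 1.88-fold below Control. That value rests on an undetected signal and is not a lower bound. Its signals were close to background, at 9.0 units in Control and 7.9, 5.3 and 4.9 with the inhibitors. Of 13 measured genes of glutathione and cystine handling, 11, 6 and 7 were below Control, with medians of -0.11, 0.02 and 0.00. Cyb5r1, on this list though it encodes a reductase that is not an enzyme of glutathione synthesis, had ratios of -0.18, -0.42 and -0.51. Mpst, a sulfurtransferase, had -0.32, -0.10 and -0.15. The sign of the median depended on the processing for the eIF2 list and the glutathione list with D-PDMP and D-PPMP, for the other synthetases with D-PPMP and for the further targets with D-PDMP.

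**Figure D5:**
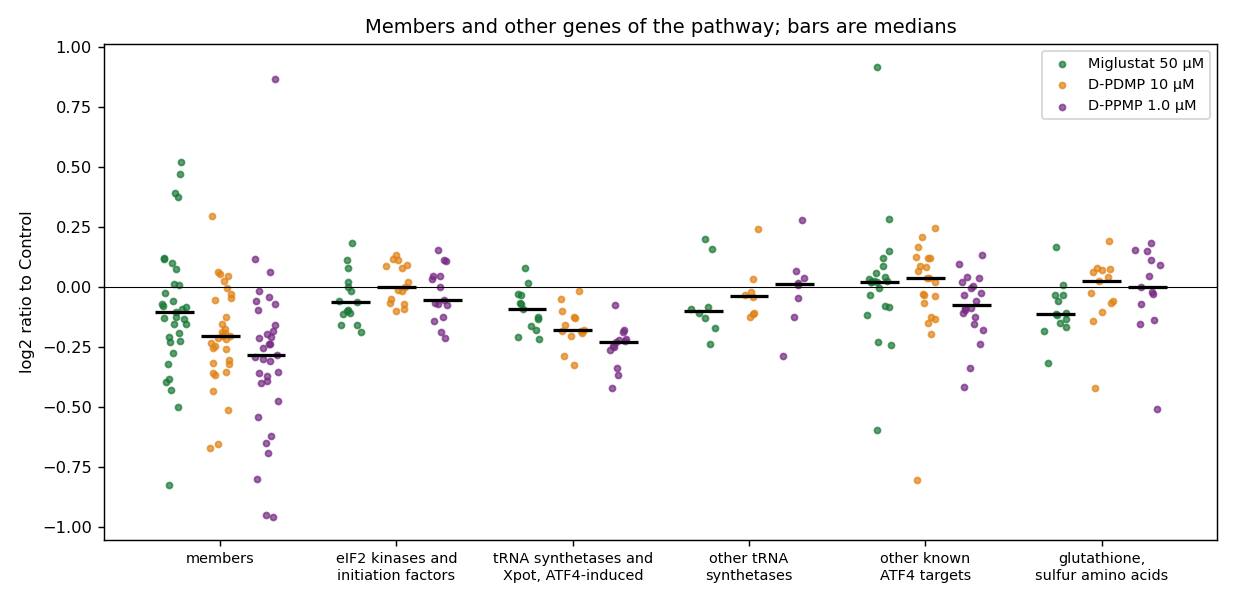
Log2 ratio to Control of each measured gene of the amino acid stress list ("members") and of 5 other lists of the pathway, with 1 point per gene and inhibitor; black bars are the medians of each list. The bars of the list and of the ATF4-induced tRNA synthetases lie below 0 with each inhibitor, at -0.28 and -0.23 with D-PPMP, and those of the eIF2 list lie between -0.06 and 0.00.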

How the data were processed

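Total RNA of 4 cultures, 1 per group, was labelled with Cy3 by Agilent's low input one-colour protocol, per the labels. The scans were read with Agilent Feature Extraction 12.1.1.1, per the submitters' processing notes, and each deposited file lists the intensity of every spot. Its processed signal has the background of that array taken off, per the file headers. The deposited series table holds log2 values by the authors. With outlier spots kept, the values computed here equalled them within 0.05 for at least 99.9% of probes. The scale, centring and direction of that table are therefore known. Its column medians were -4.1, -4, -4 and -3.89, and how it was made is not given in the sources used here.

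Control spots and spots marked as outliers (66 to 85 per array) were left out. Repeated spots were averaged on the log2 scale, and each of the 56605 probes was set relative to the 75th percentile of its array (183 to 191 signal units). Probes were matched by accession to RefSeq gene names for GRCm38.p6, with no array coordinates, since the array design names another build. Of the probes, 32994 (58.3%) matched, to 22911 genes. The brightest probe over the arrays stood for a gene. A gene was compared where it was well above background on both arrays, and was counted as different at 1.5-fold or 2-fold. Fgf21's fold with D-PPMP sets its Control level against its own signal on the D-PPMP array. That signal was higher than the dimmest signal well above background there, so the fold is not a bound.

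The genes of the list and the other lists were chosen with earlier results of these data known. Levels on each array are given for genes at least 1.5-fold from Control with any inhibitor and for 5 transcription factors, and for the other lists the 2 genes most distant from Control are named. The choice of the brightest probe and the counts of genes past a fold were tested on simulated data, and the normalization was not. Python 3.11.15, R 4.3.3 and limma 3.58.1 were used, and the alternatives tried were normexp background correction (offset 50), quantile and cyclic loess normalization, another set of probes behind the percentile, the authors' table, other filters, other probe rules and outlier spots kept. The number of arrays limits the precision.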

Additional observations from a re-analysis of the deposited data

How the results depend on the processing

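Each group had 1 array, so no array could be left out. No paired analysis was possible because no group had a second replicate. The list's median log2 ratio kept its sign under every alternative run, from -0.18 to -0.07 with Miglustat, -0.30 to -0.20 with D-PDMP and -0.33 to -0.25 with D-PPMP. The ends at -0.18, -0.30 and -0.33 came from the second brightest probes, which only 12 genes have, an alternative added after seeing the data. Normexp on mean signals was not run because the files used here hold median signals, and its run on those was also added after seeing the data. With it, 1 gene was at least 1.5-fold lower with D-PDMP, 3 with D-PPMP, and 0 were higher with D-PPMP. Quantile normalization and cyclic loess each put 1 gene (Slc7a11) at least 2-fold lower with D-PPMP. So did the mean over probes, which takes in a second Slc7a11 probe not well above background with D-PPMP. Without the filter on dim probes 1 gene (Stc2) was at least 2-fold lower with D-PDMP. The eIF2 list's median with D-PPMP was 0.019 with the mean over probes, against -0.053. The cause was not tested. Dim signals limit Slc7a11, Slc7a5, Slc7a3, Cbs and Stc2, and Fgf21 and Atf3 of the other lists.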
